A study of Mus musculus with 2 samples.

Results

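The 36 genes described here are interferon-stimulated genes, taken from a fixed list by symbol, and all 36 were found among the 55401 genes of the files. The list was made to leave out the interferon-induced GTPases, but Mx1, Mx2 and Ifi47 encode GTPases, so the genes are called interferon-stimulated genes without that restriction. They were measured in single-cell RNA libraries from brains of C57BL/6J mice, 10 weeks of age. The metastasis library was a pool of 3 brains injected intracranially with B16/F10-BrM, a brain-seeking derivative of the mouse melanoma line B16/F10, and the naive library was a pool of 3 brains without tumour cells. Both suspensions had been depleted of myelin and enriched with microbeads against ACSA-2, an astrocyte surface antigen, so the classes below are those that came through that enrichment. Each group is 1 library of pooled animals. The spread between mice is therefore unknown, no p-value is given, and every interval is a 95% interval that covers counting error only.

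Interferons are secreted proteins that cells make on sensing viral or misplaced nucleic acids, or, in the case of interferon gamma, when T and NK cells are activated. Type I interferons signal through Ifnar1 and Ifnar2 and the kinases Jak1 and Tyk2 to a complex that includes Stat2 and Irf9 and binds a promoter sequence called the interferon-stimulated response element. Interferon gamma signals through Ifngr1 and Ifngr2 to a promoter sequence called the gamma-activated site, and it induces Irf1. The genes that respond encode antiviral effectors, nucleic acid sensors and parts of the signalling pathway itself. In the brain, microglia, endothelial, ependymal and choroid plexus cells are among those known to respond.

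The libraries held 89193669 UMIs (unique molecular identifiers, each standing for a captured RNA molecule) in metastasis and 69445557 in naive. Limits on UMIs, genes and mitochondrial share and the removal of likely doublets left 12920 and 13155 cells, whose median depth was 2814 and 2765 UMIs. More barcodes passed than the approximately 10000 cells loaded per condition, so some can be droplets with debris. The titles of the 2 records were exchanged by the submitters after release, and the present titles are used. Pmel, a melanosome gene that the injected line expresses, had 145835 UMIs in the kept cells of metastasis and 3536 in those of naive. Cell barcodes shared by the 2 libraries numbered 47, or 0.364% and 0.357% of cells, where 25.0 were expected from the numbers of cells. Of the 47, 12 had the same class in both libraries, and the source of the excess was not tested. Cells were grouped without using the 36 genes, and a class is called "like" a cell type from its markers. In 11 classes both libraries had at least 50 cells. Levels are UMIs summed over the cells of a class and scaled to CPM by all UMIs of that class. A gene was measured in a class when the 2 sums held at least 20 UMIs, and ratios are metastasis over naive on the log2 scale. Free RNA was read from barcodes with 100 to 300 UMIs, which are mostly droplets without a cell.

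The genes were higher in metastasis in most classes, by very different amounts and at very different levels. The largest median was that of ependymal-like cells, which line the ventricles and bear cilia, with a log2 ratio of 2.12 over 33 measured genes. It was 1.62 in oligodendrocyte-like, 1.60 in fibroblast-like, 1.40 in choroid plexus epithelium-like and 1.32 in neuroblast-like cells. Smaller medians were found in microglia-like (0.98), astrocyte-like (0.98), macrophage/monocyte-like (0.58) and olfactory ensheathing-like cells (0.39). The endothelial-like median was negative, at -1.11, and that of mural-like cells, at -0.37, turned with the settings. Medians over all genes tested lay between -0.02 and 0.09 in 10 of the classes and at -0.30 in macrophage/monocyte-like cells. Differences between classes were not tested.

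**Figure D1:**
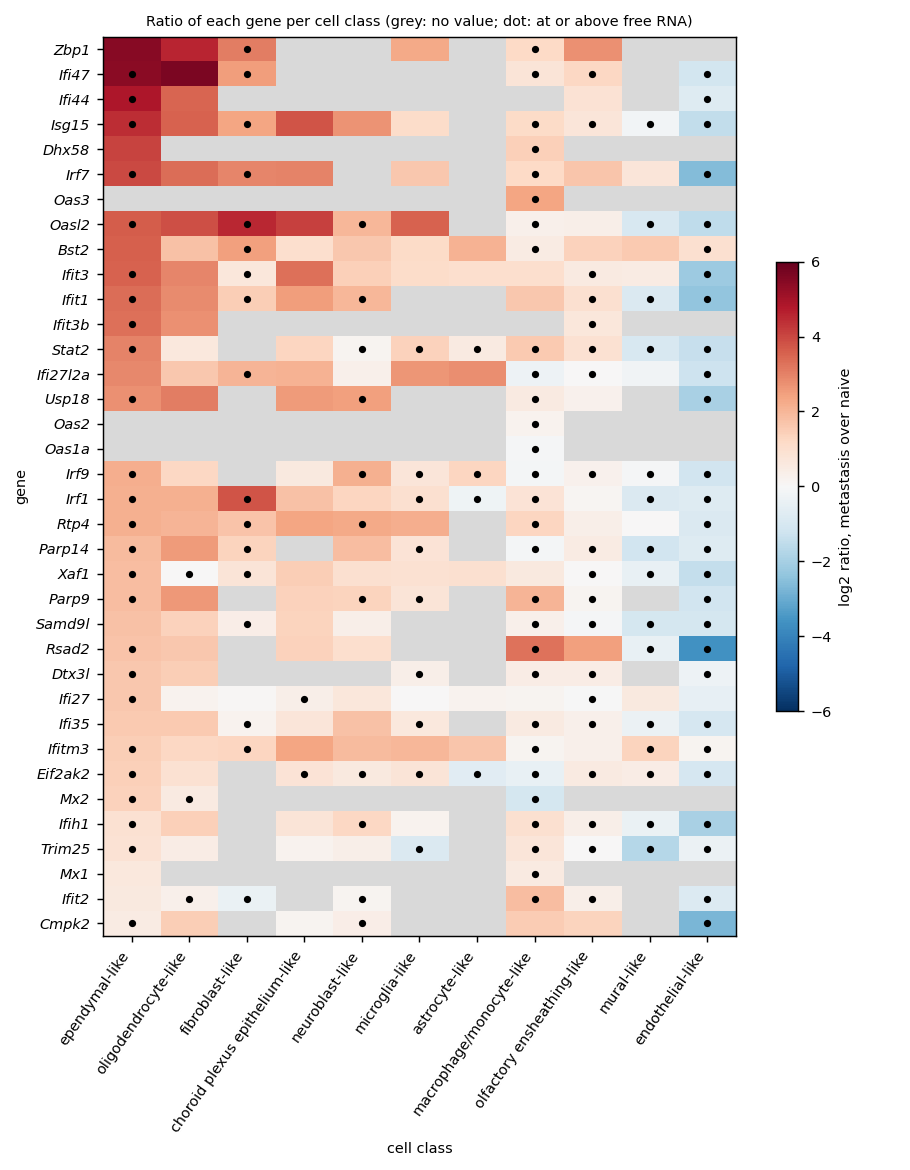
Log2 ratio, metastasis over naive, of each of the 36 genes (rows) in the 11 cell classes (columns, by median ratio). Red is higher in metastasis and blue lower, grey marks genes with fewer than 20 UMIs or with 0 UMIs in naive and no usable bound, and a dot marks a level at or above free RNA in the library where the gene was higher. The ependymal-like column is the reddest, and the endothelial-like column is mostly blue.

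Free RNA carried the same genes, which bears on every class. In free RNA, 32 of 35 measured genes differed by 2-fold or more, all higher in metastasis, and the median was 2.18, while 13.8% of 15540 genes were that much higher. Isg15, a ubiquitin-like modifier, had 127 CPM in the free RNA of metastasis and 12.7 in that of naive. Zbp1, a sensor of Z-form nucleic acids that can trigger cell death, had the largest ratio there, at 5.5, and Ifi27, a small mitochondrial protein gene, the smallest, at 0.30. Droplets with cells carry some of this RNA too. Marker lists of other cell types stood at a median of 23.5% and 30.3% of their free level in ependymal-like cells of metastasis and naive, and at 17.2% and 17.4% in oligodendrocyte-like cells. For each class compared, the main count of higher genes is also given for those at or above the free level itself. That is a stricter limit than those shares. Counts for single clusters, other settings, 4-fold and pathway genes are given without it.

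**Figure D2:**
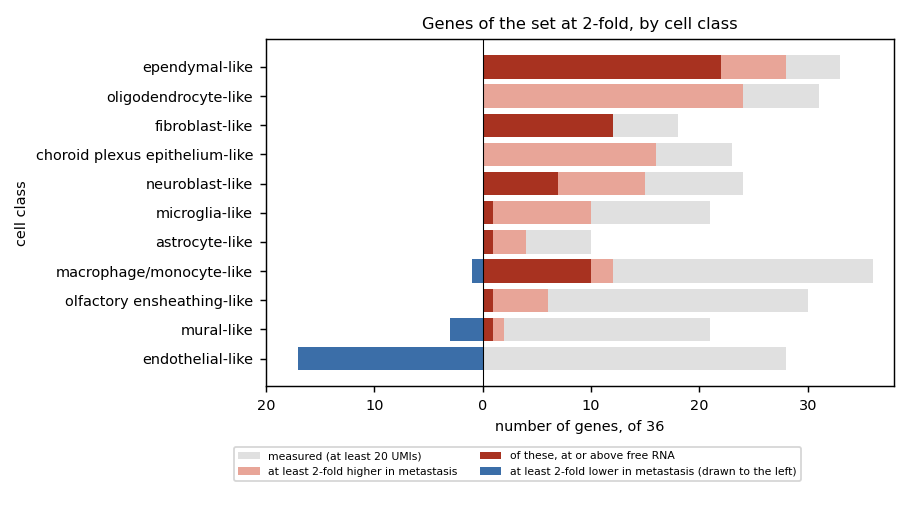
Number of the 36 genes measured (grey), at least 2-fold higher in metastasis (light red), higher and at or above free RNA (dark red) and at least 2-fold lower (blue, drawn to the left) in each cell class. The dark part is longest in ependymal-like cells, with 22 genes, and is absent in oligodendrocyte-like, choroid plexus epithelium-like and endothelial-like cells.

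In ependymal-like cells (2297 in metastasis and 3224 in naive), 28 of 33 measured genes were at least 2-fold higher and none was lower, where 3.53% of 16387 genes were higher and 1.3% lower. At the stricter size of 4-fold, 17 were higher, and the share of all genes at that size is not given here. Of the 28, 22 were at or above free RNA. The class carried its defining markers at similar levels in both libraries, with the ciliary regulator Foxj1 at 668 and 606 CPM and Tmem212 at 3179 and 3496. Summed over the 36 genes, the level was 6123 CPM in metastasis and 1658 in naive. Set against free RNA, the genes stood at a median of 172% of the free level in metastasis and 173% in naive. In the same ependymal-like cells the melanoma list stood far lower, at 6.45% and 8.40% of free RNA. The macrophage/monocyte list stood at 8.91% and 18.2%, and the microglia list at 12.6% and 14.1%. Not every list of other cells was low. The neutrophil list stood at 666% and 382%, the astrocyte list at 196% and 123%, and the dendritic list at 123% and 303%. The remaining lists of other cells were below their free level.

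The tetratricopeptide proteins, which bind foreign RNA ends and block its translation, were among the genes with the largest differences. Ifit3 had 326 CPM in metastasis and 27.7 in naive, a log2 ratio of 3.56 (3.40 to 3.72). For Ifit1 the levels were 175 and 17.2, a ratio of 3.35 (3.14 to 3.56). Ifit3b, a close copy of Ifit3, had 58.9 and 5.88, and how reads shared between the copies were counted is not given in the sources used here. The remaining member of the family, Ifit2, had 12.4 and 8.25, a ratio of 0.59 (0.18 to 1.0), and its metastasis level was below the 17.0 of free RNA. These 4 genes lie side by side within 99.3 kb of chromosome 19 on the plus strand (chr19:34550694-34650009, GRCm38). Adjacent copies of the family therefore differed in ratio, with 3 of 4 at least 2-fold higher.

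Isg15 had 261 CPM in metastasis and 12.3 in naive, a ratio of 4.41 (4.18 to 4.65). Its protease Usp18, which removes Isg15 from proteins and restrains the type I receptor, had 35.9 and 5.35. Isg15 and Usp18 were thus both higher and above free RNA. Of the oligoadenylate synthetases, which make the second messenger that activates RNase L, only Oasl2, a relative, had enough UMIs in these cells. Oasl2 had 186 CPM in metastasis and 15 in naive, a ratio of 3.63 (3.42 to 3.85). Oas1a had 11 UMIs in metastasis and 0 in naive, Oas2 had 8 and 2, and Oas3 had 9 and 1.

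All 4 transcription factor genes were higher. Irf7, the factor that amplifies type I interferon production, had 97.6 CPM in metastasis and 6.19 in naive, a ratio of 3.98 (3.65 to 4.33). Stat2 had 70.6 and 9.01, and its partner Irf9 had 95 and 20.9. The interferon gamma target Irf1 had 40.5 and 9.17, a ratio of 2.14 (1.84 to 2.46). Of these, Irf7 had the largest ratio and Irf1 the smallest.

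Sensors of nucleic acid had unequal ratios, with 3 of 5 at 2-fold. Zbp1 had the largest ratio of all 33 genes, 5.48 (4.53 to 6.63), from 30.7 CPM in metastasis and 0.687 in naive, but its metastasis level was below the 33.8 of free RNA. Dhx58, a regulator of the RNA helicase sensors, had 31 and 3 UMIs and was also below free RNA. The kinase gene Eif2ak2, which stops translation on sensing double-stranded RNA, had 43.7 and 16.3 CPM. The RNA sensor Ifih1 (29.0 and 15.4) and the ubiquitin ligase Trim25 (14.0 and 7.79) had ratios under 2-fold, 0.91 and 0.85. Sensor genes thus included both the largest ratio and some of the smallest.

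Parp9, Parp14 and Dtx3l, which act in ADP-ribosylation and in ubiquitin transfer, had similar ratios of 1.84, 1.88 and 1.63. Parp9 (27.8 and 7.79 CPM) and Dtx3l (18.4 and 5.96) encode partner proteins, lie head to head on chromosome 16 and have start sites 681 bases apart. Parp14 had 29.6 and 8.02, and its start site is 66926 bases from that of Parp9. All 3 were at or above free RNA.

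Among the antiviral membrane and lipid proteins, Ifitm3, which blocks the fusion of viruses in endosomes, was already abundant in naive, at 1033 CPM, and had 2845 in metastasis, a ratio of 1.46 (1.43 to 1.49). Bst2, or tetherin, which holds budding virus on the cell surface, had 358 and 29.9, a ratio of 3.58 (3.43 to 3.74), just under the 362 of free RNA. Rtp4 had 116 and 26.6. Rsad2, or viperin, which makes a chain-terminating nucleotide, had 75.8 and 23.1, a ratio of 1.72 (1.52 to 1.92). Its neighbour Cmpk2, a nucleotide kinase gene that starts 12752 bases away on the opposite strand of chromosome 12, had 47.0 and 33.9. The Cmpk2 ratio, 0.47 (0.27 to 0.67), was the smallest of the 33, so the intervals of these neighbours did not overlap.

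Of the 3 GTPase genes, Ifi47, one of the immunity-related GTPases that act on pathogen vacuoles, had 57.8 CPM in metastasis and 1.37 in naive, a ratio of 5.39 (4.72 to 6.16). Ifi47 overlaps Olfr56 on the same strand. Mx2 had 10.6 and 4.05, and Mx1 had 18 and 19 UMIs with an interval of the ratio from -0.39 to 1.63. Mx2 is annotated as a polymorphic pseudogene, and laboratory strains are known for damaged Mx genes. All 6 of the other genes were at least 2-fold higher. Ifi44 had 82.6 and 2.83 CPM, a ratio of 4.87 (4.39 to 5.39). Ifi27l2a had 58.5 and 7.87, well under the 241 of free RNA in metastasis, while Ifi27 had 795 and 260.3, a ratio of 1.61. Xaf1, linked to cell death, had 80.8 and 22.2, Ifi35 had 24.4 and 8.33, and Samd9l, an inhibitor of translation, had 10.2 and 3.06. Samd9l and Ifi35 were below free RNA.

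**Figure D3:**
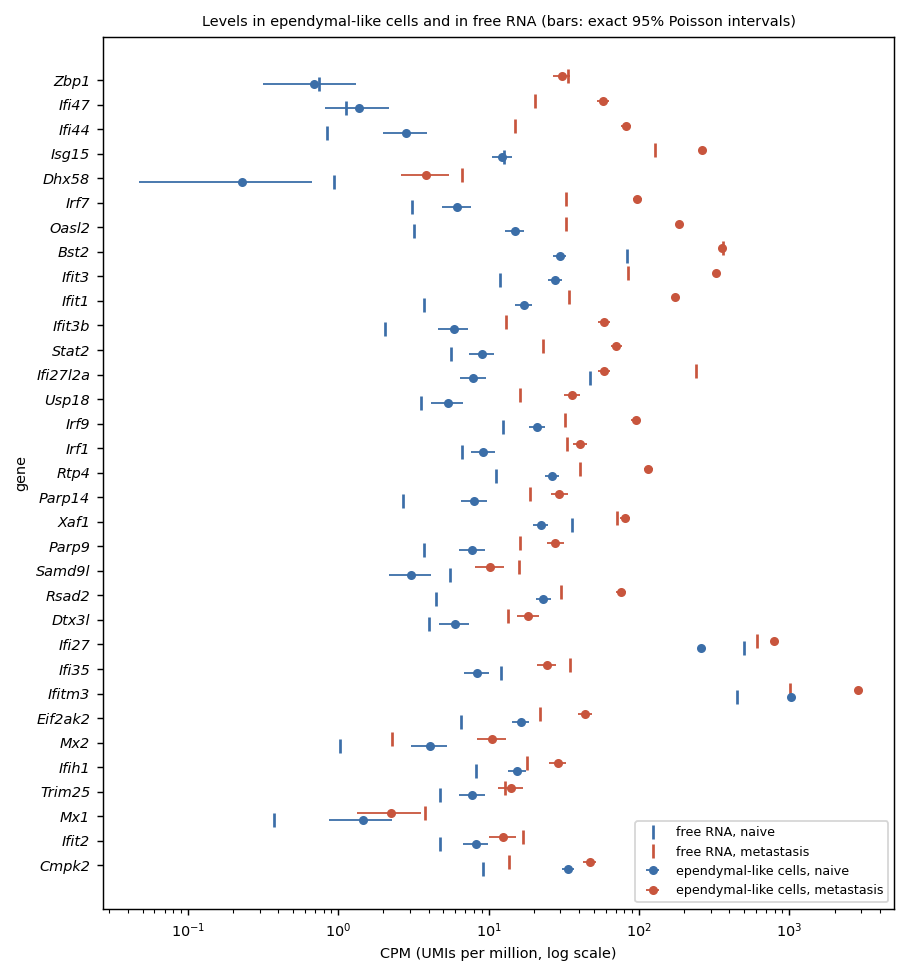
Level in CPM (log axis) of the 33 measured genes in ependymal-like cells of naive (blue) and metastasis (red), with exact 95% Poisson intervals, and in the free RNA of the same libraries (vertical ticks). Genes run from the largest ratio, Zbp1, to the smallest, Cmpk2, and red points lie right of the red ticks for most but not all genes.

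The difference was found in all 3 clusters that made up the ependymal-like class. At least 2-fold higher were 26 of 32 measured genes in cluster 0, 28 of 31 in cluster 5 and 25 of 29 in cluster 10, with medians of 1.95, 2.16 and 2.19. Over all genes tested the shares that much higher were 2.78%, 3.05% and 3.47% in the 3 clusters. None of the 36 genes was that much lower in any of them, where 1.51%, 1.39% and 2.13% of all genes were. Marker levels of other cells also differed in the class: the macrophage/monocyte list had 206 CPM in metastasis and 14.4 in naive, with Cd163 at 0 in metastasis, and the melanoma list 364 and 36.1. The microglia list had 182 and 127. When only cells without a single UMI of these 3 lists were kept, an alternative chosen after seeing the data, 238 and 1803 cells remained. Among them 24 of 31 measured genes were at least 2-fold higher, where 3.31% of 13059 genes were, the median was 1.58, and Ifit2 turned to -0.88. The neutrophil list, at 224 CPM in metastasis and 89.3 in naive over the class, was not part of that filter, and its part was not tested.

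The UMIs were spread over many ependymal-like cells. With each cell thinned to 1000 UMIs, at least 3 of the 36 genes were seen in 45.4% (43.4 to 47.5%) of these cells in metastasis and 5.71% (4.93 to 6.56%) in naive. Without thinning the shares were 69.9% and 36.3%. At least 5 genes were seen in 23.7% and 0.868% of cells. The median cell showed 2 genes in metastasis and 1 in naive. The 10% of cells with most UMIs of the 36 genes held 33.4% of these UMIs in metastasis and 34.5% in naive. Abundant genes weigh most in these shares, as Ifitm3 held 2845 of the 6123 CPM in metastasis, so they say little of the rarer genes. The rise was not shown to be even. When clustering also used these genes and the others left out before, 1 ependymal-like cluster held 1003 cells of metastasis and 16 of naive. Ifit3 was among its 10 leading genes, and another ependymal-like cluster held 927 and 2735 cells. Genes that differ between the libraries helped to form these clusters, so their split by library is no separate evidence of an uneven rise. Isg15 had a UMI in 14.9% of the thinned cells in metastasis and 0.962% in naive. In oligodendrocyte-like cells, where Isg15 stayed far under its free level, the shares were 1.12% and 0.127%. Median depths were 3016 and 3159 UMIs in ependymal-like and 2739 and 2970 in oligodendrocyte-like cells. Ifitm3 had a UMI in 74.5% and 52.6% of ependymal-like cells and Ifit3 in 18.7% and 1.74%.

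**Figure D4:**
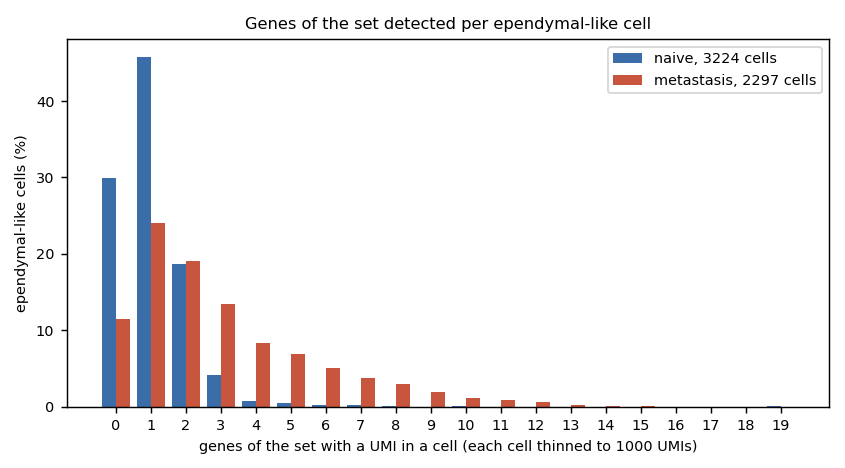
Share of ependymal-like cells (vertical axis, percent) by the number of the 36 genes with a UMI after thinning each cell to 1000 UMIs (horizontal axis), in naive (blue, 3224 cells) and metastasis (red, 2297 cells). Most naive cells show 0 or 1 gene, and the metastasis distribution has a long tail to the right.

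Since most of these genes were higher together in ependymal-like cells, their promoters were read from RefSeq (GRCm38.p6), as windows from 250 bases before to 50 bases after the start site. Entries were found for 25 of the 36 genes, with 28 promoters. No entry was found for Oas2, Dhx58, Zbp1, Usp18, Parp9, Parp14, Mx1, Mx2, Rtp4, Ifi27 and Ifi27l2a. GAAANNGAAA, the core of the interferon-stimulated response element, was searched on both strands and found in 12 of the 28 promoters (42.9%), against 3.44% of 32851 promoters of the same length. TTCNNNGAA, the gamma-activated site, which reads the same on both strands, was found in 7 (25.0%), against 8.30%. In 2 of the 28 promoters matches of both motifs overlapped. The 5 promoters below are those with a response element match and the largest ratios in ependymal-like cells, followed by Stat2. Capitals mark the response element matches, with overlapping ones joined. The gamma-activated site match in Bst2, which overlaps them, is not marked. A run of TTTC letters is the response element read on the other strand.
Isg15, chr4:156200769-156201068, minus strand: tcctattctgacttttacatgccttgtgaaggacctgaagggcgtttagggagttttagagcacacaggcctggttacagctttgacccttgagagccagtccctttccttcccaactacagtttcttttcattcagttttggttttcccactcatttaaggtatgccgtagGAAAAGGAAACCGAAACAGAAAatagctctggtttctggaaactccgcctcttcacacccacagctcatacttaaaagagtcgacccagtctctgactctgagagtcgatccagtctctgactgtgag
Bst2, chr8:71537423-71537722, minus strand: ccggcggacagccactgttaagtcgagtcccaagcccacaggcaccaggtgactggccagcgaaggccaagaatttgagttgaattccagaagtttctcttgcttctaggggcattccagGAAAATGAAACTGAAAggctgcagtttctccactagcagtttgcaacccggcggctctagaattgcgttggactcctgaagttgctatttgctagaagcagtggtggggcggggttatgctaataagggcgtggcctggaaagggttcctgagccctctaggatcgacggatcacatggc
Ifit3, chr19:34583279-34583578, plus strand: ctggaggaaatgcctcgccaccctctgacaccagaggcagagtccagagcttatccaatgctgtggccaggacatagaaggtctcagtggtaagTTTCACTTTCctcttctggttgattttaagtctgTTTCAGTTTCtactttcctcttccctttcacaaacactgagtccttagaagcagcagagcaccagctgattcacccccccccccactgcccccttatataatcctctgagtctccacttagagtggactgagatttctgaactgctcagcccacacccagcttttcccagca
Ifit1, chr19:34640639-34640938, plus strand: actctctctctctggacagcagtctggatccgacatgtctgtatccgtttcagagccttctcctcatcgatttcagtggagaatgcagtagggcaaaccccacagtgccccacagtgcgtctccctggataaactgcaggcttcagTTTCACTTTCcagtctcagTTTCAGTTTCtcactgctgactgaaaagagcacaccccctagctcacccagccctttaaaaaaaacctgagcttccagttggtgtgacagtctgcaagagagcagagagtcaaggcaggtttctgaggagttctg
Ifit3b, chr19:34607707-34608006, plus strand: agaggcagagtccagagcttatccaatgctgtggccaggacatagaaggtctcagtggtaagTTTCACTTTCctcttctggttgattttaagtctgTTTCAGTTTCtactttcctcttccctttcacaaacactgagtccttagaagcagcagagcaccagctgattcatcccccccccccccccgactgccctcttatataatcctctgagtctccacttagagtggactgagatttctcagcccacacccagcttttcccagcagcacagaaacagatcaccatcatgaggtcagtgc
Stat2, chr10:128270248-128270547, plus strand: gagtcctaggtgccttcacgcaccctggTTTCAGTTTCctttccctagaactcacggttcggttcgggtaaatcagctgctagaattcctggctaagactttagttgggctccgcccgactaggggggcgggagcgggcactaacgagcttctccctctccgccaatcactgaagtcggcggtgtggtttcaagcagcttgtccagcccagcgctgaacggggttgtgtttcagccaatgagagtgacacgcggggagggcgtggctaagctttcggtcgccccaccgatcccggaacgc
A match is a description of the letters and not a measured binding site. In Isg15, 3 overlapping matches begin 78 bases before the start site and end 57 bases before it. Bst2 has 2 overlapping matches from 130 to 115 bases before its start. Ifit3 and Ifit3b carry the same pair of matches, at 156 and 188 bases before their starts, within promoters that share an unbroken run of 169 bases. Ifit1 has a pair closer to its start, from 104 to 76 bases before it. Stat2 has 1 match, 222 to 213 bases upstream. Of the genes with a match, 9 of 10 measured ones were at least 2-fold higher in ependymal-like cells (median 3.15), and of those without, 10 of 13 (median 1.86). The ranges overlapped, from 0.91 to 4.41 with a match and from 0.47 to 5.39 without, and Ifi47 and Ifi44, with 2 of the 3 largest ratios, had no match in this window.

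Fibroblast-like cells (100 and 70) had the next largest number of higher genes at or above free RNA. Of 18 measured genes, 12 were at least 2-fold higher, all 12 at or above free RNA and none lower, where 8.09% of 4350 genes were higher and 3.29% lower. Zbp1 had 44 UMIs in metastasis and 0 in naive, at least 8.42-fold higher with the 0 set to 3 UMIs. Oasl2 had 40 and 1 UMIs, a ratio of 4.52 (1.96 to 9.86), and Irf1 had 24 and 1, with 3.78 (1.17 to 9.15). Better counted genes were Bst2, with 485 and 88.7 CPM, and Ifi27l2a, with 604 and 148. Ifitm3 had 3424 and 1407, its highest level in any class of metastasis. The smallest ratios were those of Ifi35 (0.20), Ifi27 (0.06) and Ifit2, whose 57.7 and 76.9 gave -0.41 (-1.54 to 0.75). With few cells most intervals were wide, and 11 of the 18 lay above 0. Macrophage/monocyte markers were higher in this class too, at 757 and 112 CPM with 4 of 12 markers at 0 in metastasis and 9 of 12 in naive, and their part in the result was not tested.

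Neuroblast-like cells (281 and 353), migrating young neurons, had 15 of 24 measured genes at least 2-fold higher and none lower, where 3.61% of 10434 genes were higher and 2.8% lower. Of the 15, 7 were at or above free RNA. Isg15 had 50.9 CPM in metastasis and 7.76 in naive but stayed below free RNA. Usp18 (26.4 and 4.85), Rtp4 (46.8 and 9.70), Irf9 (38.7 and 8.73) and Ifit1 (58.0 and 14.6) were above it. Smallest were Ifit2 (0.14), Stat2 (0.18) and Ifi27l2a (0.31). Markers of other cells differed as well: the macrophage/monocyte list had 255 and 64.0 CPM, with 3 and 6 of 12 markers at 0, the melanoma list 402 and 46.6, and the erythroid list, which was lower in metastasis, 34.6 and 1167. Their part in the result was not tested.

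Macrophage/monocyte-like cells were nearly all from metastasis, 1598 against 77, so the naive sums were small. All 36 genes were measured, the only class where this was so, and 12 were at least 2-fold higher and 1 lower, where 7.65% of 12007 genes were higher and 24.7% lower. Of the 12, 10 were at or above free RNA. Rsad2 had 806 and 2 UMIs, a ratio of 3.26 (1.40 to 6.30). Oas3, measured in this class alone, had 218 and 1, with 2.37 (-0.12 to 7.68), and Parp9 had 351 and 2, with 2.06 (0.19 to 5.11). Ifit2 had 457 UMIs and 0, at least 3.61-fold higher. Ifi44 and Ifit3b also had 0 UMIs in naive, and their bounds, with 129 and 75 UMIs in metastasis, settled no direction. Oas1a had 80 and 2 UMIs and Oas2 98 and 2. Well counted genes differed little: Bst2 had 879 and 627 CPM (0.49, 0.24 to 0.74), and Ifi27l2a had 653 and 816, a ratio of -0.32 (-0.54 to -0.09). Mx1 had 27.0 and 18.9, its highest level in either library, and the gene that was lower by 2-fold, Mx2, had 41 and 2 UMIs with an interval from -2.99 to 2.05. The cells of this class also differed in other genes: Gpnmb had 1056 and 75.5 CPM and Ccr2 69.4 and 302.

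Microglia-like cells (445 and 623), the cluster rich in the homeostatic gene P2ry12, had 10 of 21 measured genes at least 2-fold higher and none lower, where 2.03% of 8909 genes were higher and 2.51% lower. Only Stat2, with 48.7 and 18.6 CPM, was also at or above free RNA. Oasl2 (31.1 and 2.65), Ifi27l2a (166 and 26.5) and Zbp1 (25.7 and 5.31) had the largest ratios, 3.55, 2.65 and 2.28. The smallest were Ifih1 (0.20), Ifi27 (0.03) and Trim25, at -0.86 (-2.14 to 0.29). The result depended on which cells bear the name. With each cell named by its own marker UMIs, the class held 1290 and 640 cells, and 27 of 36 measured genes were at least 2-fold higher (median 2.18), where 8.52% of 11548 genes were. Markers of other cells were higher in the cluster in metastasis: the macrophage/monocyte list had 656 and 198 CPM, with 5 and 4 of 12 markers at 0, the melanoma list 810.2 and 89.3, and the erythroid list 3003 and 179. Their part in the result was not tested.

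In olfactory ensheathing-like cells, the glia that wrap olfactory axons (930 and 1142), 6 of 30 measured genes were at least 2-fold higher and none lower, where 2.49% of 11493 genes were higher and 1.25% lower. Only Ifi47 (29.3 and 12.5 CPM) was also at or above free RNA. Zbp1 (10.3 and 1.52), Rsad2 (19 and 3.41) and Irf7 (11.9 and 3.79) led, at 2.76, 2.47 and 1.65. Several genes were present at substantial and equal levels: Ifi27 had 757 and 759.5 CPM, Xaf1 98.1 and 97.5, and Samd9l 46.6 and 49.3. The ratios of these 3, from -0.08 to 0.01, were the smallest. In this class 19 genes were at or above free RNA, and 18 of them were within 2-fold. The macrophage/monocyte list had 269.9 and 18.6 CPM in these cells, with 2 and 5 of 12 markers at 0, and the melanoma list 584 and 56.5, and their part was not tested.

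Oligodendrocyte-like cells, the most numerous class (5280 and 5529), showed 24 of 31 measured genes at least 2-fold higher and none lower, where 4.76% of 15146 genes were higher and 1.31% lower, yet none of the 24 was at or above free RNA. Ifi47 had 45 and 1 UMIs, a ratio of 5.63 (3.08 to 10.97), Zbp1 43 and 2, and Oasl2 106 and 8. Isg15 had 11.4 CPM in metastasis and 0.979 in naive, against 127 and 12.7 in free RNA. Over the genes, the level was a median of 15.3% of the free level in metastasis and 15.2% in naive. That is near the share for the microglia list in the same cells, 12.7% and 14.8%, and above that for the melanoma list, 8.11% and 13.5%. With free RNA subtracted, 6 of 31 genes were at least 2-fold higher, where 2.72% of all genes were, and the median was 0.14. The genes with the smallest ratios were Xaf1 (79.5 and 78.1 CPM), Ifi27 (0.22) and Ifit2 (17.7 and 14.5), and Xaf1 and Ifit2 were above free RNA.

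Choroid plexus epithelium-like cells (253 and 562) had 16 of 23 measured genes at least 2-fold higher and none lower, where 2.91% of 12022 genes were higher and 1.46% lower, again with none of the 16 at or above free RNA. Over the genes, the level was a median of 34.1% of the free level in metastasis and 49.7% in naive. Marker lists of other cell types stood at a median of 15.3% and 13.8% in these cells, and this difference was not tested. Oasl2 had 22 and 3 UMIs, a ratio of 4.10, and Isg15 70 and 12, with 3.77 (2.88 to 4.79). Ifit3 (3.30) followed. Ifi27, at 716 and 559 CPM, and Eif2ak2, at 29.1 and 16.7, were above free RNA and within 2-fold. The smallest ratios were those of Cmpk2 (0.18), Trim25 (0.23) and Ifi27 (0.36). The macrophage/monocyte list had 218 and 11.4 CPM in this class, with 2 and 7 of 12 markers at 0, and the microglia list 241 and 85.1, and their part was not tested.

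The astrocyte-like class, the intended target of the enrichment, was thinly measured for these genes. Its 330 and 1033 cells carried Aqp4 at 866 and 794 CPM and Slc1a3 at 4315 and 3668. Only 10 of the 36 genes had 20 UMIs, and 4 were at least 2-fold higher and none lower, where 2.54% of 10452 genes were higher and 3.47% lower. That count changed with the settings, to 7 at 500 UMIs per barcode, 11 with doublets kept, 12 with at least 10 UMIs per gene and 15 with cells named by their own markers. The numbers of genes measured and the shares of all genes under these settings are not given here. A larger count therefore need not mean a larger rise. Irf9, with 37.4 and 15.5 CPM and a ratio of 1.27 (0.42 to 2.10), was the 1 of these at or above free RNA, where it had 32.2 in metastasis. Ifi27l2a had 16 and 8 UMIs (2.81), Bst2 31 and 26 (2.06) and Ifitm3 115 and 126 (1.68, 1.30 to 2.06), all below free RNA. Ifi27 (0.23), Irf1 (-0.28) and Eif2ak2 (-0.67, -2.07 to 0.51) had the smallest ratios. At least 3 of the 36 genes were seen in 3.03% (1.46 to 5.50%) of thinned cells in metastasis and 0.484% (0.157 to 1.13%) in naive. Of the other 26 genes, 5 had an interval wholly above 0 on fewer than 20 UMIs: Rsad2, with 17 and 2 UMIs (4.90, 2.82 to 8.06), Isg15, with 12 and 5 (3.07, 1.47 to 4.93), Oasl2, Rtp4 and Ifih1. These 5 were below free RNA. The macrophage/monocyte list had 356 and 46.5 CPM in these cells, with 2 and 6 of 12 markers at 0, and the melanoma list 698 and 58.2, and their part was not tested.

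Endothelial-like cells went the other way (197 and 97 cells). None of 28 measured genes was at least 2-fold higher and 17 were at least 2-fold lower in metastasis, where 19.6% of 9847 genes were higher and 16.7% lower. Rsad2 had 18.6 CPM in metastasis and 229.7 in naive, a ratio of -3.63 (-4.19 to -3.07). Cmpk2 had 8.02 and 53.8 (-2.75) and Irf7 20.1 and 122 (-2.60). Bst2, at 563 and 291, had the highest ratio, 0.95, followed by Ifitm3 (0.18) and Dtx3l (-0.30). The class, however, joined 2 clusters that the libraries filled unequally. Cluster 21 held 153 cells, all from metastasis, and expressed Plvap, a gene of fenestrated and tumour vessels, at 506 CPM, with Cldn5, a tight junction gene of the blood-brain barrier, at 659. Cluster 22 held 44 and 97 cells, with 0 Plvap UMIs in both libraries and Cldn5 at 7993 and 8537. Its endothelial genes led it, but its nearest marker list by fold was the erythroid one, and the haemoglobin gene Hba-a1 had 3017 and 4880 CPM there against 63.9 in cluster 21. Over the whole class the erythroid list had 1376 and 21929 CPM, the mural list 1551 and 187, and the fibroblast list 163 and 0, with all 7 fibroblast markers at 0 in naive. Their part in the result was not tested.

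Within cluster 22, the cells that both libraries shared, 1 of 23 measured genes was at least 2-fold higher and none lower, with a median of 0.12, where 3.33% of 4048 genes were higher and 3.98% lower. This split was chosen after seeing the data, and 44 cells is under the minimum of 50. Rsad2 had 202 CPM in metastasis and 229.7 in naive there, and 8.47 in cluster 21. Isg15 had 321 and 273, and 85.8 in cluster 21. Ifit3, with 15 and 14 UMIs, was the gene at 2-fold, with a ratio of 1.06 (-0.09 to 2.22). The lower sum of the whole class thus came with the cells of cluster 21, in which Cmpk2, Ifit3 and Rsad2 had the lowest levels of the 23 genes. Bst2 differed from these, with 578 CPM in cluster 21 and 286 and 291 in cluster 22.

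**Figure D5:**
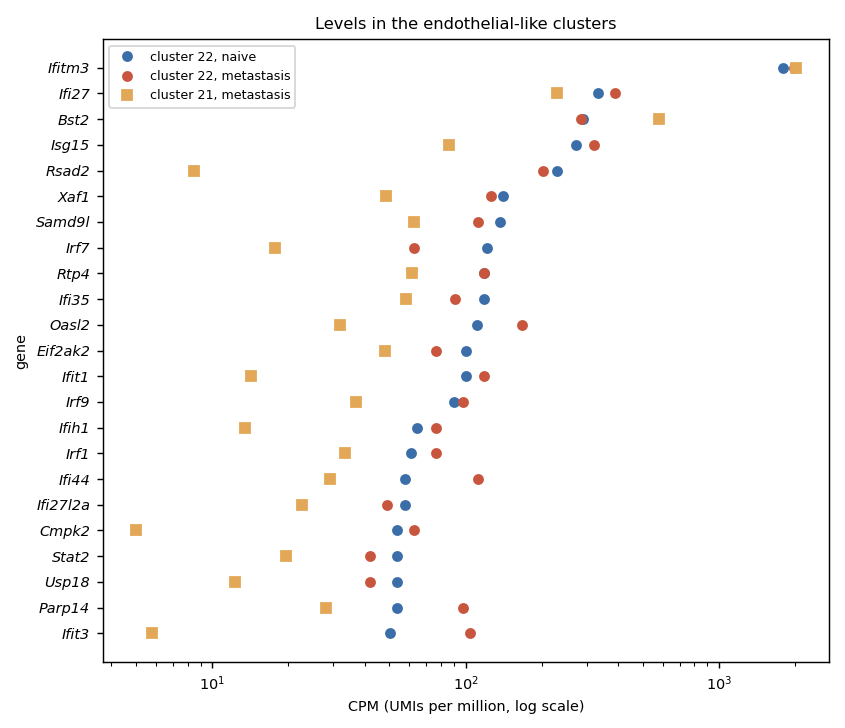
Level in CPM (log axis) of the 23 genes measured in endothelial-like cluster 22 for its naive cells (blue circles), its metastasis cells (red circles) and the metastasis cells of cluster 21 (yellow squares). Red and blue lie close together, and most squares lie to their left, with Bst2 to the right.

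Mural-like cells, the pericytes and smooth muscle cells of vessels (141 and 118), gave no settled direction. Of 21 measured genes, 2 were at least 2-fold higher (Bst2, at 199 and 66.9 CPM, and Ifitm3, at 1993 and 797) and 3 were lower, where 18.8% of 7744 genes were higher and 17.2% lower. Of the 2 higher genes, 1 was at or above free RNA. Irf7 had the next largest ratio, 0.74. The lowest were Samd9l (-1.05), Parp14 (-1.14) and Trim25 (-1.69). The endothelial gene Cldn5 stood at 417 and 1890 CPM in this class and the smooth muscle gene Myh11 at 326 and 1485. The macrophage/monocyte list had 631 and 246 CPM, with 3 and 7 of 12 markers at 0. The part of these differences in the result was not tested.

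Melanoma-like cells numbered 680 in metastasis and 18 in naive and were not compared. The source of the 18 was not tested. In metastasis Ifitm3 had 339 CPM, Bst2 260.5, Ifi27 549.8 and Isg15 89.5, all below free RNA, while Eif2ak2, at 60.2, Rsad2, at 67.6, and Ifi35, at 50.2, were above it. In all, 12 of 35 genes with a free RNA level were above it in these cells.

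Over the 11 classes compared, which leave out melanoma-like cells, 23 of the 36 genes in naive brains had their highest level in endothelial-like cells and 8 in macrophage/monocyte-like cells. Isg15, for example, had 273 CPM in endothelial-like cells, then 101 in olfactory ensheathing-like cells and 0.979 in oligodendrocyte-like cells, the lowest. In metastasis the order changed: 13 genes were highest in fibroblast-like cells, 11 in ependymal-like, 8 in macrophage/monocyte-like, 3 in microglia-like and 1 in olfactory ensheathing-like cells. The 11 included Ifit1, Ifit3, Ifit3b, Oasl2, Irf9, Stat2 and Ifi44. These places were taken over all 36 genes, without the minimum of UMIs used for ratios, so some rest on very few UMIs. In naive, Oas1a and Mx2 were highest in endothelial-like cells on 3 UMIs each, and Oas3 in macrophage/monocyte-like cells on 1. How many of all genes were highest in each class is not given here. The endothelial-like class was all cluster 22 in naive, but in metastasis 153 of its 197 cells were in cluster 21. Cluster 22 of metastasis, taken alone, had Rsad2 at 202 CPM, Xaf1 at 125 and Ifi44 at 111. The highest class levels of these genes in metastasis were 90.1, 98.1 and 82.6. Isg15 (321 against 336) and Bst2 (286 against 879) stayed lower there. The part of this composition in the order was not tested. Just 7 genes were measured in all 11 classes. Among them Bst2 was at least 2-fold higher in 9 classes and Ifitm3 in 8, while Ifi27 was so in ependymal-like cells alone.

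The rest of the pathway moved unevenly in ependymal-like cells. Of all 16387 genes tested in these cells, 3.53% were at least 2-fold higher and 1.3% lower. Of the receptor and signalling genes, 5 of 16 measured were at least 2-fold higher and none lower. The receptor genes Ifnar1, with 28.1 and 28.3 CPM, and Ifngr1, with 79.9 and 76.5, and the kinase gene Jak1, with 72.3 and 71.6, were nearly equal, at ratios of -0.01, 0.06 and 0.02. Ifnar2 (0.69), Ifngr2 (0.57) and Tyk2 (0.68) were within 2-fold. The feedback inhibitor gene Socs1 had 34.5 and 15.4 CPM, a ratio of 1.16 (0.90 to 1.43). Upstream sensing genes were at least 2-fold higher for 2 of 9. Other interferon-stimulated genes were higher for 35 of 51 (median 1.74). The largest were the chemokine genes Cxcl11 (27 and 1 UMIs) and Cxcl9 (61 and 4), the GTPase-like Gm4951 (967 and 45) and the DNA sensor Ifi204 (62 and 4). Cxcl11, Cxcl9 and Ifi204 were below free RNA, where Cxcl9 had 142 CPM in metastasis, and Gm4951 was above it. How many of the 35 were at or above free RNA is not given here.

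Interferon transcripts themselves were scarce. Ifnb1 had 4 UMIs in the kept cells of metastasis, 2 in macrophage/monocyte-like and 2 in melanoma-like cells, and 0 in naive. Ifng had 73 and 65 UMIs, of which 47 and 47 lay in cells left unnamed and 13 and 13 in ependymal-like cells. Ifnk had 2 and 2, and Ifna2, Ifna4, Ifnl2, Ifnl3 and Ifne had none in either library. The kept cells held 66776925 and 48157784 UMIs, and a count of 0 among them does not exclude a low level.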

How the data were processed

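Single-cell RNA was measured in 2 libraries, 1 per group. The deposited files hold unfiltered counts of UMIs per gene and barcode, per the file contents, made by the authors with STARsolo on GRCm38, per the submitters' processing notes; the version, the settings and the handling of reads shared by close copies or of strand are not given in the sources used here. The 10x 3' v3 kit was used, per the labels' protocols. The 36 members, gene lists and rules were chosen with earlier results of these data known.

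Barcodes needed 1000 UMIs, 500 genes and no more than 20% mitochondrial UMIs. Scrublet's automatic threshold called 0 of 13745 barcodes in metastasis and 855 of 13995 in naive, so the 6% of barcodes with the highest doublet scores were removed in each library (825 and 840), a choice made after seeing the data. Both libraries were clustered together without integration (2000 variable genes, 30 components, 15 neighbours, Leiden resolution 1), leaving out the 36 genes, their pathway lists and MHC genes. Clusters were named from 19 marker lists by limits set after the clusters were seen: a median log2 fold of at least 1 with 20 CPM added, at least 3 markers at 2-fold, and the most markers among the 10 leading genes. Clusters 16 (260 and 106 cells) and 17 (128 and 203) stayed unnamed.

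Sums were taken per class and library and scaled to CPM. A class needed 50 cells in each library and a gene 20 UMIs. Ratios have exact conditional binomial intervals, levels exact Poisson intervals and shares exact Clopper-Pearson intervals. Only the ratio intervals were tried on simulated counts, drawn as independent Poisson counts from the ependymal-like sums. Such counts meet the assumption of the interval, so the trial cannot show how it covers UMIs clumped within cells. A sum of 0 was set to 3 UMIs over the class. The whole table was used for the share of all genes at 2-fold. Named genes are all 36, the 3 largest and 3 smallest ratios in each class, fixed pathway genes and the 4 other interferon-stimulated genes of largest ratio in ependymal-like cells; some of these are not reported here, and genes named beyond this were chosen after their values were seen. Coordinates come from GENCODE M21 (GRCm38), which matched 54349 of 55401 gene identifiers, and 34 of the 36 with their version. Overlapping the 36 genes, 4 have a gene on the same strand (Parp14, Irf9, Ifi47 and Rtp4) and 11 a gene on the opposite strand, so their counts are less certain, as are those of Ifit3, Ifit3b, Oas1a and Ifi27l2a, which have close copies. Alternatives varied the limits, doublets, clustering, naming, weighting, scaling, free RNA, minimum UMIs, fold size and thinning. Python 3.11.15, scanpy 1.11.5, leidenalg 0.10.2 and scipy 1.17.1 were used.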

Additional observations from a re-analysis of the deposited data

How the results depend on the processing

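Of 760 ratios and medians under the alternatives, 689 moved by less than 0.5 or stayed near the main value, 61 moved further and 10 turned. The counts of higher genes in ependymal-like cells ranged from 24 to 31 apart from 17 at 4-fold, and its median stayed between 1.58 and 2.21. At 4-fold the counts were 2 in astrocyte-like, 9 in choroid plexus epithelium-like, 3 in macrophage/monocyte-like, 4 in microglia-like, 0 in mural-like, 4 in neuroblast-like, 2 in olfactory ensheathing-like and 14 in oligodendrocyte-like cells, and 5 genes were lower in endothelial-like cells. The shares of all genes at 4-fold are not given here. In choroid plexus epithelium-like and oligodendrocyte-like cells, none of the genes higher by 2-fold or more was at or above free RNA. With free RNA subtracted, 7 genes were higher in macrophage/monocyte-like, 2 in olfactory ensheathing-like and 6 in oligodendrocyte-like cells; the median of olfactory ensheathing-like cells turned to -0.13 and Irf7 there to -0.22. In cells without melanoma, microglia or macrophage/monocyte marker UMIs, 14 of 20 genes were higher in oligodendrocyte-like cells, and Ifit2 in ependymal-like cells turned to -0.88.

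In astrocyte-like cells 12 genes were higher with at least 10 UMIs to count, 7 with at least 500 UMIs per barcode, 11 with doublets kept and 15 with cells named by their own markers. In microglia-like cells the count was 5 with at least 2000 UMIs and 27 with cells named by their own markers. In endothelial-like cells 1 gene was higher at 500 UMIs, at 2000 UMIs, at 10% mitochondrial UMIs, at resolution 0.5, with all variable genes, with doublets kept, with own markers and in the shared cluster, and the number lower was 9 at 2000 UMIs, 7 with equal weight per cell and 0 in the shared cluster. The mural-like count and median were 7 and 1.04 at 500 UMIs, 7 and 1.40 at 10% mitochondrial UMIs, 5 and 0.64 with all variable genes, 5 and 0.68 with doublets kept, 6 and 1.03 with own markers, 5 and 0.66 at resolution 0.5; the median was 0.0222 with equal weight per cell. For most counts in this section, the number of genes measured and the share of all genes under that setting are not given here. The cause of these changes was not tested.

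Free RNA of 10 to 100 UMIs gave 4 of 7 measured genes higher. Without thinning, 69.9% and 36.3% of ependymal-like cells showed at least 3 genes. At 2000 UMIs or 10% mitochondrial UMIs no cluster took the name macrophage/monocyte-like, and at 2000 UMIs the mural-like cluster held 71 cells of metastasis and 0 of naive, so no value was had. No paired analysis was possible because each group has 1 library, and no library could be left out. The astrocyte-like and fibroblast-like cells had most genes under 20 UMIs, 26 and 18. Fibroblast-like cells had the fewest UMIs in all, 294682 and 169139, while the 587769 and 2062558 of astrocyte-like cells together exceeded the sums of several classes with fewer such genes.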
